A study of Mus musculus with 4 samples.

Results

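The TGF-beta and activin signalling genes considered here are 10 rows of a table of gene counts from 2 mouse keratinocyte lines: Tgfb1, Tgfb2, Tgfb3, Inhba, Fst, Tgfbr1, Tgfbr2, Smad3, Smad7 and Tgfbi. They were taken by exact gene name, and all 10 were found among 23420 gene rows. The lines, named MK1 and MK2, were each grown as 2 biological replicate cultures, and total RNA of each culture was sequenced as 1 library. The labels give no treatment, genotype, strain, sex or passage for either line, so each group stands for 1 line of unstated origin. The command kept in the header of the count table calls the alignments MK and MKU, whereas its columns and the labels say MK1 and MK2. The columns were followed, and why the names differ is not given in the sources used here. The comparison is MK2 against MK1. Where a difference has a sign, it is MK2 minus MK1 on the log2 scale, with its standard error (SE). Levels are given as CPM, counts per 1000000 of the library after TMM scaling, or as TPM, which also divides by gene length and is the scale on which genes can be set beside each other. "Rose" and "fell" are used of genes with an adjusted p under 0.05 in edgeR's quasi-likelihood test over all genes tested.

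TGF-beta ligands are secreted in a latent form, are held in the matrix by binding proteins and are freed by integrins or proteases. The active ligand binds the type II receptor, which recruits and phosphorylates the type I receptor. That receptor in turn phosphorylates Smad2 and Smad3, which enter the nucleus with Smad4. Activins use their own pair of receptors but the same Smads, and follistatin binds activin and keeps it from its receptor. In epidermis the pathway is best known for holding back keratinocyte division, for its part in wound repair and for matrix production.

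Libraries held 25237391 to 30261111 counts, and 0 counts in a library allowed a level of up to 0.0987 to 0.119 CPM, counting error only. Over 12479 tested genes, cultures of MK1 differed by a median of 0.138 on the log2 scale and those of MK2 by 0.171. All 7 listed markers of basal keratinocytes had counts in both lines. Their summed level was 21422 to 21707 CPM in MK1 and 18016 to 20965 CPM in MK2, and most of it came from Krt5 and Krt14. Col17a1 fell, from 3287 and 2876 CPM in MK1 to 1395 and 1560 CPM in MK2. Itga6 rose, and the other listed markers of this kind did not pass. Krt15 had 145 and 120 counts in MK1 and 702 and 7 in MK2. Of 11 fibroblast markers, 4 had no count in MK1 and 5 none in MK2, among them Dcn, Lum and Pdgfrb in both lines. The summed level of that list was 36.2 to 43.9 CPM in MK1, of which Twist1 alone gave 32.1 and 40.5 CPM, and 2.30 to 2.72 CPM in MK2. Col1a1 was at most 0.278 CPM in any library. The 6 B lymphocyte markers summed to 15.2 to 15.9 CPM in MK1 and 0.238 to 0.282 CPM in MK2, with Cd79b and Ms4a1 among those without a count there. The 7 macrophage and dendritic cell markers summed to 23.9 to 25.8 CPM in MK1 and 2.74 to 4.13 CPM in MK2, and most of the MK1 sum came from Cd68 (18.0 and 15.4 CPM) and Cd14 (6.77 and 7.67 CPM). Emr1 and Lyz2 had at most 4 counts in any MK1 library and none in MK2, and Itgam and Itgax were at most 4 counts in any library. The part of such cells in the results below was not tested. In these bulk libraries, more cells that express a gene and more of its RNA per cell cannot be told apart.

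Of the 10 genes, 8 had enough counts to be tested, each of them in both lines. Fst, Tgfbi, Tgfbr1, Inhba and Smad7 rose in MK2, so that 5 of 8 were called higher, where 25.9% of all tested genes were. Without MK1 replicate 2, 3 of the genes and 1875 of all tested genes were called higher. None fell in edgeR's test (0 of 8, against 28.6% of all tested genes), although Tgfbr2 had an unadjusted p under 0.05 and was the 1 gene called lower by DESeq2. Tgfb1 and Smad3 did not pass in either direction. A second edgeR test (glmTreat) asked for changes beyond 2-fold and called 3 of the 8 higher, namely Tgfbi, Fst and Tgfbr1, where 3.25% of all tested genes were called higher. Both libraries of one line lay outside the range of the other for 6 of the 8 genes, and for 80.5% of all tested genes.

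**Figure D1:**
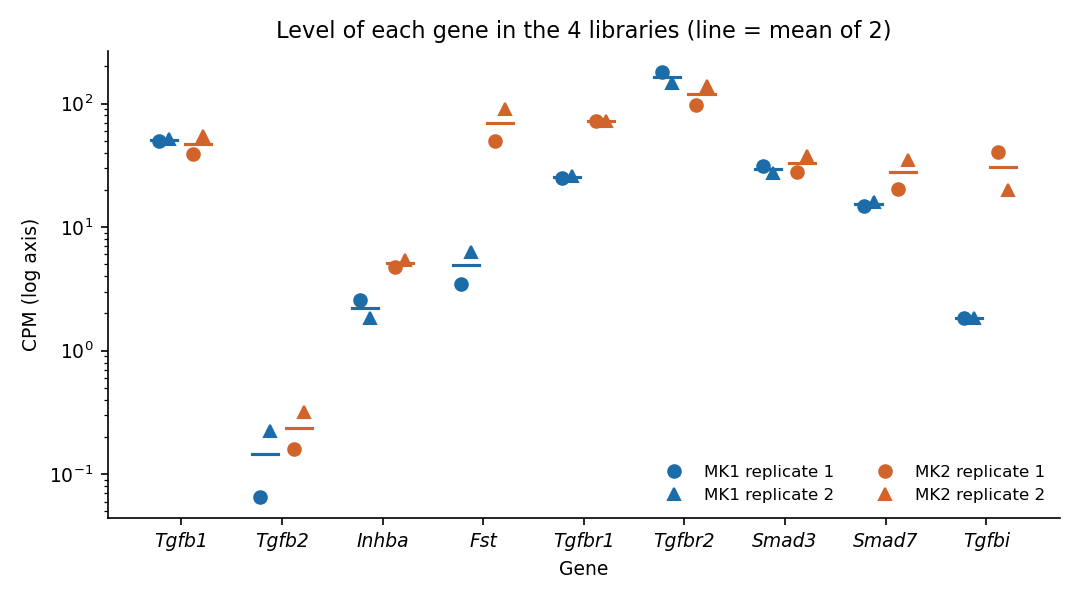
Level of 9 of the 10 genes in CPM (log axis) in each of the 4 libraries, with MK1 in blue and MK2 in orange, circles for replicate 1, triangles for replicate 2 and a line at the mean of the 2. Fst (14.3-fold) and Tgfbi (16.5-fold) stand furthest apart between the lines, Tgfb1 and Smad3 overlap, and Tgfb3 is left out because 2 of its libraries are at 0.

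Among the 3 TGF-beta isoforms, nearly all transcripts came from Tgfb1. Tgfb1 (chromosome 7, 25687002 to 25704996, mm10) encodes the isoform that epithelial and immune cells make most widely. Its level was 50.02 and 51.5 CPM in the MK1 cultures and 39.3 and 54.2 CPM in the MK2 cultures. The MK2 cultures lay on either side of those of MK1, and the difference of -0.12 (SE 0.16) did not pass (adjusted p = 0.559 in edgeR). Its sign depended on the library: without MK2 replicate 1 it was 0.10, and without MK2 replicate 2 it was -0.37 and passed (adjusted p = 0.0410).

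Tgfb2 (chromosome 1, 186623186 to 186705992), an isoform prominent in embryonic epithelia and hair follicles, had 2 and 6 counts in MK1 and 4 and 9 in MK2. Pooled over the cultures of each line, the ratio of MK2 to MK1 was 1.74, with a 95% counting interval of 0.668 to 4.84, so that neither direction could be told at this depth. Tgfb3 (chromosome 12, 86056743 to 86079041), an isoform known from palate closure, had 0 and 3 counts in MK1 and 0 and 1 in MK2. Both genes were too low to be tested. With no filter on low counts, Tgfb2 and Tgfb3 did not pass (adjusted p = 0.491 and 0.603 in edgeR). On the TPM scale Tgfb1 made up 99.9% and 99.7% of the isoforms' summed level in MK1 and 99.8% and 99.7% in MK2. The order of the isoforms' mean levels was thus Tgfb1, Tgfb2, Tgfb3 in both lines, though Tgfb2 and Tgfb3 overlapped in MK1. For Tgfb2, the RefSeq gene reached 399 bases beyond the counted gene model at the low end and 3705 at the high end. For Tgfb1 it reached 81 bases further at the high end. Reads from there were not counted, which bears on these shares.

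The activin subunit and its antagonist both rose, the antagonist by far more. Inhba (chromosome 13, 16014475 to 16027211) encodes the beta A chain of activin A, a ligand induced in wounded skin. It stood at 2.57 and 1.82 CPM in MK1 and 4.77 and 5.40 CPM in MK2. Both MK2 cultures were above both MK1 cultures, and Inhba rose by 1.21 (SE 0.25, adjusted p = 0.00631 in edgeR). The rise was not called beyond 2-fold (glmTreat adjusted p = 0.418). Without MK1 replicate 2 it was 0.98 and no longer passed (adjusted p = 0.0533). In the annotation used, the gene model behind the deposited counts held 1529 bases of Inhba, and the RefSeq gene on the same build reached 10219 bases further at the low end and 4398 at the high end. Reads from there were not counted for Inhba, which bears on its TPM.

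Fst (chromosome 13, 114452262 to 114458730), which encodes follistatin, had 105 and 170 counts in MK1 and 1250 and 2543 in MK2. These counts corresponded to 3.45 and 6.33 CPM in MK1 and to 49.7 and 89.7 CPM in MK2. The lower MK2 culture was thus well above the higher MK1 culture. Fst rose by 3.84 (SE 0.37), or 14.3-fold, with an adjusted p of 3.31e-04 in edgeR, and was called beyond 2-fold (glmTreat adjusted p = 8.96e-04). The cultures of each line also differed: replicate 2 was above replicate 1 by 0.86 in MK1 and 0.85 in MK2, a larger gap than 98.0% and 95.4% of tested genes had. Without each library in turn, the difference stayed between 3.36 and 4.33.

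Set side by side in TPM, Fst stood at 3.13 and 5.60 in MK1 and at 42.9 and 76.0 in MK2, and Inhba at 3.55 and 2.47 in MK1 and 6.29 and 6.99 in MK2. In MK1 their ranges overlapped. The ratio of Fst to Inhba was 0.881 and 2.27 in the MK1 cultures and 6.82 and 10.9 in the MK2 cultures. Both MK2 ratios were above both MK1 ratios, and with 2 cultures a line the smallest exact permutation p is 0.333, so the ratio was not tested.

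**Figure D2:**
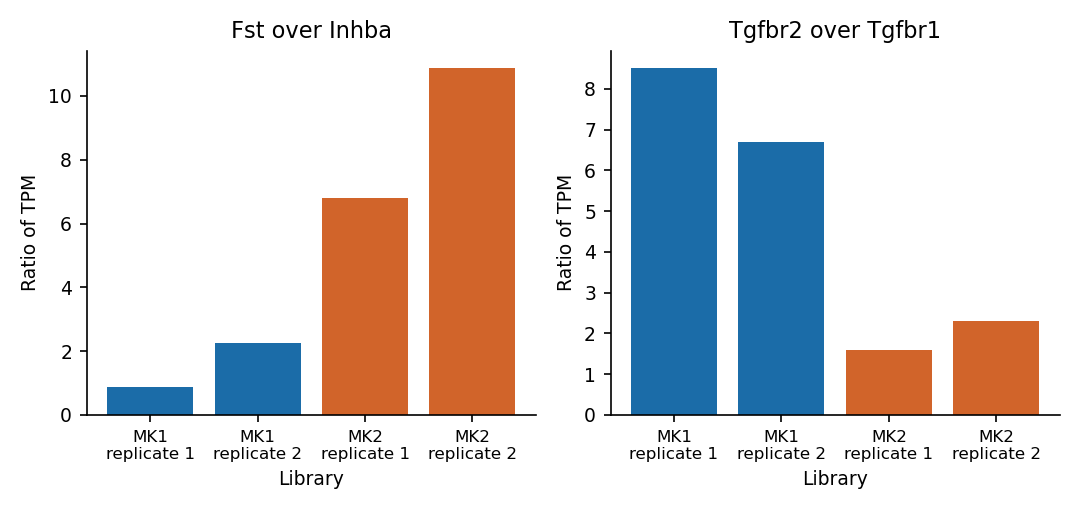
Ratio of TPM in each of the 4 libraries, for Fst over Inhba (left) and Tgfbr2 over Tgfbr1 (right), with bars starting at 0. Fst over Inhba was 0.881 and 2.27 in MK1 against 6.82 and 10.9 in MK2, and Tgfbr2 over Tgfbr1 was 8.51 and 6.70 in MK1 against 1.60 and 2.30 in MK2.

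Of the receptor chains, the type I chain rose and the type II chain did not pass. Tgfbr1 (chromosome 4, 47353305 to 47414924) encodes the type I receptor kinase that phosphorylates the Smads. Its level was 25.03 and 26.03 CPM in MK1 and 72.2 and 71.7 CPM in MK2. The cultures of each line were close together and the lines far apart, and Tgfbr1 rose by 1.49 (SE 0.10), or 2.82-fold (adjusted p = 9.74e-05 in edgeR, glmTreat adjusted p = 0.00308). With a library left out, another scaling, filter, tool or block, the difference stayed between 1.44 and 1.52 and passed each time.

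Tgfbr2 (chromosome 9, 116087695 to 116175363) encodes the type II receptor, which binds the ligand first. It stood at 180.0 and 147 CPM in MK1 and 97.9 and 139 CPM in MK2. Both MK2 cultures were below both MK1 cultures, the nearest pair by little, and the difference of -0.46 (SE 0.19) did not pass (adjusted p = 0.0720 in edgeR). It passed without MK2 replicate 2 (-0.74, adjusted p = 0.00386), with no filter on low counts (adjusted p = 0.0289) and in DESeq2 (-0.46, adjusted p = 0.0424), and had an adjusted p of up to 0.350 without the other libraries. In TPM, Tgfbr2 exceeded Tgfbr1 in every library, 8.51-fold and 6.70-fold in MK1 and 1.60-fold and 2.30-fold in MK2. The smaller excess in MK2 held in both cultures and was not tested.

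The stretches before the start sites of these receptor genes are shown because the genes encode partners of 1 complex and one of them was called. They are the 250 bases upstream of the RefSeq start on GRCm38.p6, the assembly that mm10 names, written 5′ to 3′ on the strand of the gene. Tgfbr1 lies at chr4:47352972-47353221 on the plus strand and Tgfbr2 at chr9:116175364-116175613 on the minus strand. Capitals mark every match found on either strand. The Smad box was searched as CAGAC, the core that Smad proteins are known to bind in their target promoters. The GC box, bound by Sp1 and its relatives, was searched as GGGCGG. The TATA box, placed shortly before the start of many tissue-restricted genes, was searched as TATAAA. The site of AP-1, a factor that often acts beside Smads, was searched as TGANTCA, and the CCAAT box by the letters of its name. A palindromic Smad element, GTCTAGAC, was searched too and was in no printed stretch. None of the matches overlapped in the stretches printed.
Tgfbr1: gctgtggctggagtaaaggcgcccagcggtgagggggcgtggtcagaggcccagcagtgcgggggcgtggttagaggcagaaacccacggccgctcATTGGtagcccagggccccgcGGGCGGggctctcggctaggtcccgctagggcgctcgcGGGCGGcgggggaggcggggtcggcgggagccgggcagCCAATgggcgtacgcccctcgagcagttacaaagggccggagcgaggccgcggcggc
Tgfbr2: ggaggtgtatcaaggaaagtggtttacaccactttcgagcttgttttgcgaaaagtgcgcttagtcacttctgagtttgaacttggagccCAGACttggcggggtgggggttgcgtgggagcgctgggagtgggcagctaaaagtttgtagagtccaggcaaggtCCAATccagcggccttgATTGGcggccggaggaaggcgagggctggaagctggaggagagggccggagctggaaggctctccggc
The Tgfbr1 stretch had 74.8% G and C with 29 CpG dinucleotides, and held 2 GC boxes and 2 CCAAT boxes. The Tgfbr2 stretch had 58.4% G and C with 12 CpG dinucleotides, and held 1 Smad box, 2 CCAAT boxes and no GC box. Among 32851 promoter stretches of the same length, 42.2% held a Smad box, 32.7% a GC box, 33.9% a CCAAT box, 12.4% a TATA box, 6.75% an AP-1 site and 0.167% the palindromic element, so the kinds matched here are common. RefSeq lists a further start for Tgfbr1 within the gene.

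Of the intracellular genes, the inhibitory Smad rose and the receptor Smad did not pass. Smad3 (chromosome 9, 63646767 to 63757994), a transcription factor activated by both TGF-beta and activin receptors, stood at 31.2 and 27.6 CPM in MK1 and 27.8 and 37.9 CPM in MK2. The lines overlapped, and the difference was 0.16 (SE 0.17, adjusted p = 0.452 in edgeR). Smad7, on chromosome 18, encodes the inhibitor that blocks the type I receptor and is itself induced by the pathway. It stood at 14.8 and 16.0 CPM in MK1 and 20.5 and 34.9 CPM in MK2. Both MK2 cultures were higher, one of them only slightly, and Smad7 rose by 0.85 (SE 0.25, adjusted p = 0.0246 in edgeR). That call ended without MK1 replicate 1 (adjusted p = 0.148), without MK1 replicate 2 (adjusted p = 0.103) and without MK2 replicate 2, where the difference was 0.41 (adjusted p = 0.0536). The ratio of Smad3 to Smad7 in TPM was 1.84 and 1.502 in MK1 and 1.18 and 0.946 in MK2.

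Tgfbi (chromosome 13, 56609603 to 56639339) encodes a secreted matrix protein first found as a transcript induced by TGF-beta. It had 56 and 49 counts in MK1 and 1028 and 564 in MK2, or 1.84 and 1.82 CPM against 40.8 and 19.9 CPM. The MK1 cultures were nearly equal, whereas replicate 2 of MK2 was below replicate 1 by 1.03 on the log2 scale, a wider gap than in 97.1% of tested genes. Tgfbi rose by 4.04 (SE 0.38), or 16.5-fold (adjusted p = 2.85e-04 in edgeR, glmTreat adjusted p = 7.36e-04), and with 1 library left out the difference lay between 3.44, without MK2 replicate 1, and 4.48.

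The Tgfbi promoter stretch is shown because this gene had the largest difference of the 8 tested. The 250 bases are at chr13:56609336-56609585 on the plus strand of GRCm38.p6, and capitals mark the same motifs.
Tgfbi: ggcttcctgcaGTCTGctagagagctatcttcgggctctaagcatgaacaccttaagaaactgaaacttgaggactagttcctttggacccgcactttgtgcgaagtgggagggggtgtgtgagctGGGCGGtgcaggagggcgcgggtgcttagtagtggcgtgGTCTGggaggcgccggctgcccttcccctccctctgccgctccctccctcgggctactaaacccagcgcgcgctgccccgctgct
The stretch had 62.4% G and C and held 2 Smad boxes and 1 GC box, with no TATA box or AP-1 site among the marked letters. A Smad box occurred in 42.2% of all promoter stretches of that length.

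Within MK2 the cultures did not differ in 1 direction. Fst, Smad7, Tgfbr2, Tgfb1 and Smad3 were higher in replicate 2 than in replicate 1, by 0.85, 0.77, 0.51, 0.46 and 0.45 on the log2 scale, whereas Tgfbi was lower by 1.03 and Tgfbr1 differed by -0.01. In MK1 the same replicate gap was 0.86 for Fst, -0.47 for Inhba and -0.29 for Tgfbr2, and between -0.18 and 0.11 for Tgfb1, Tgfbr1, Smad3, Smad7 and Tgfbi. Ordered by TPM, Tgfbr2 was the most abundant of the 10 genes in MK1, at 71.6 ± 11.3 (SD, n = 2), followed by Tgfb1 at 50.7 ± 0.251, Smad3 at 12.1 ± 1.26 and Tgfbr1 at 9.43 ± 0.109. In MK1 each of these 4 lay above the next without overlap. In MK2 Fst came first, at 59.5 ± 23.4 TPM, then Tgfbr2 at 49.4 ± 11.6 and Tgfb1 at 44.6 ± 9.42, but the ranges of these neighbours overlapped. Tgfbr1, Tgfbi, Smad3 and Smad7 followed, each overlapping its neighbour in that order, and Inhba lay below them at 6.64 ± 0.492 TPM.

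Chromosome medians of the difference were not all near 0, and each gene was set beside its surroundings. Fst, Tgfbi and Inhba all lie on chromosome 13, where the median difference over 460 tested genes was -0.41. Around Tgfbi, the 50 nearest tested genes had a median of -0.53, with 26 called lower and 1 higher, and Tgfbi was above all of them. Of all tested genes, 28.6% were called lower and 25.9% higher. Around Inhba the median was -0.41, with 24 called lower and 3 higher, and Inhba was above 98% of its 50 neighbours. Fst, nearer the chromosome's end, had 38 such neighbours with a median of -0.16, 15 called lower and 4 higher, and was above 97.4% of them. The rises of these 3 genes thus ran against the level of their surroundings.

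For Tgfbr1 the surroundings moved the same way. The chromosome 4 median was 0.37. Among the 50 nearest tested genes 39 were called higher and 3 lower, with a median of 0.88. The shares over all tested genes were 25.9% higher and 28.6% lower. Its adjacent tested genes differed from each other, with Galnt12 at -1.17 and Alg2 at 1.48. Relative to the neighbourhood median, Tgfbr1 was higher by 0.61, and it exceeded 90% of the neighbours. How much of its rise belongs to the region was not tested. Smad7 was above its neighbourhood median of 0.05 by 0.80. Tgfbr2 and Smad3, both on chromosome 9 with a chromosome median of -0.23, were -0.26 and 0.34 from their own neighbourhood medians, and Tgfb1 was 0.18 from that of its region on chromosome 7.

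**Figure D3:**
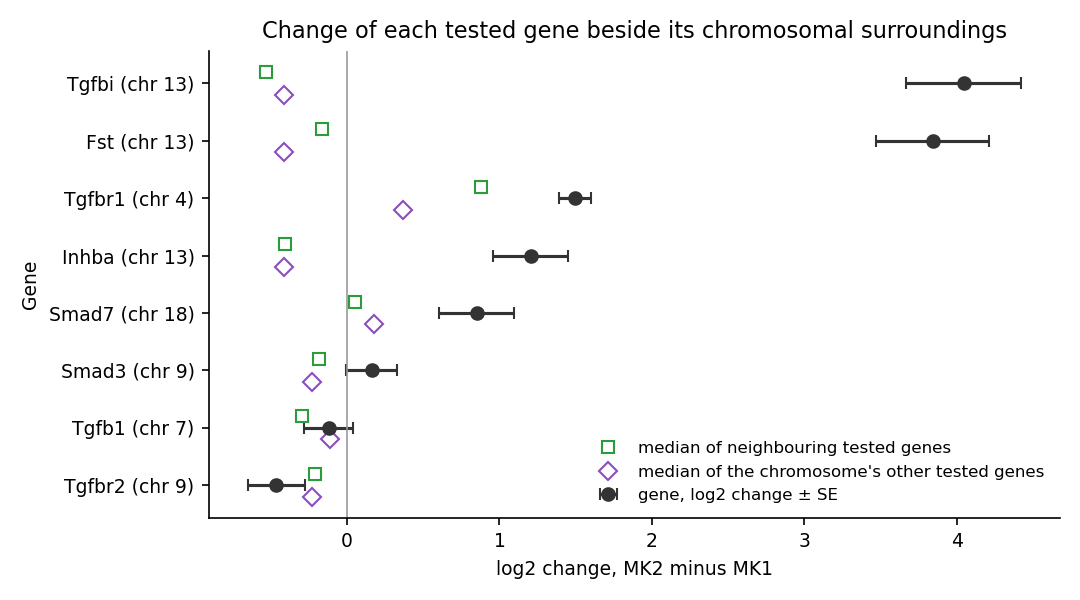
log2 change of each of the 8 tested genes, MK2 minus MK1 (filled circles, bars are SE), with the median of up to 50 neighbouring tested genes (squares) and of the chromosome's other tested genes (diamonds). Tgfbi, Fst and Inhba lie to the right of 0 while their chromosome 13 medians lie at -0.41, and the neighbourhood of Tgfbr1 lies at 0.88.

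The other genes of the pathway were counted from 7 lists by role. Outside the 10 genes the lists held 77 genes, of which 58 were tested, 21 rose and 21 fell. The 42 called genes were 72.4% of those tested, where 54.6% of all tested genes were called, and the median difference was 0.02, against -0.01 over all tested genes. Fewer of the 58 were called higher without MK1 replicate 1, and likewise without MK1 replicate 2, as was so over all tested genes. Of the 58, Lefty1 and Smad6 passed the count filter through 1 line alone and could only be found different in that direction.

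Among the other ligands the second activin subunit ran opposite to Inhba. Inhbb, which encodes the beta B chain, fell from 207 ± 32.3 to 73.5 ± 8.46 CPM (SD, n = 2), with a difference of -1.49 on the log2 scale (adjusted p = 3.64e-04 in edgeR). In TPM it stood at 114 and 89.5 in MK1 and at 37.7 and 31.4 in MK2, above Inhba in every library. Gdf11, a ligand that signals through activin receptors, rose from 0.690 ± 0.186 to 4.09 ± 0.791 CPM. Inha, the inhibin alpha chain, did not pass, at 2.40 and 1.97 CPM in MK1 and 2.30 and 2.36 CPM in MK2, and Nodal and Mstn had no counts.

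Genes that hold TGF-beta latent or free it were mostly lower in MK2. Of 11 tested, 8 fell and 2 rose, with a median of -0.97, against 28.6% lower and 25.9% higher over all tested genes. Fewer were called higher without MK1 replicate 1, MK1 replicate 2 or MK2 replicate 2. The same was so over all tested genes, though by little without MK2 replicate 2. The latent TGF-beta binding proteins Ltbp1, Ltbp3 and Ltbp4 all fell, Ltbp3 from 105 ± 17.1 to 7.51 ± 0.104 CPM (difference -3.80, adjusted p = 1.41e-05 in edgeR) and Ltbp1 from 104 ± 14.5 to 36.4 ± 8.02 CPM. Lrrc32, which tethers latent TGF-beta to the cell surface, had a difference of -1.54 and Plau, the urokinase protease, of -1.48, and both fell. Itgb6, the beta chain of the epithelial integrin that activates latent TGF-beta, fell by 1.29, whereas its partner Itgav did not pass, with a difference of -0.04. The exceptions were Thbs1, a matrix protein that activates latent TGF-beta, which rose from 554 ± 160 to 1421 ± 521 CPM, and Lrrc33, a tether of macrophages, which rose by 1.30. The Thbs1 call ended without MK1 replicate 2 (adjusted p = 0.0620). The call of Lrrc33 ended in DESeq2 (adjusted p = 0.0927) and without any of MK1 replicate 1, MK1 replicate 2 or MK2 replicate 2 (adjusted p = 0.101, 0.114 and 0.0755).

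Of 9 antagonists other than follistatin, 3 were tested, and these 3 fell, with a median of -1.63, where 28.6% of all tested genes fell. Lefty1, one of the 3, passed the count filter through MK1 alone. Of the untested, 3 had no count in any library, Bgn and Cer1 had at most 7, and Htra3, a protease related to Htra1, had 0 and 0 counts in MK1 and 9 and 6 in MK2. Fstl3, a follistatin relative that also binds activin, fell from 28.1 ± 1.53 to 9.09 ± 1.11 CPM (difference -1.63, adjusted p = 2.82e-04 in edgeR). Htra1, a secreted protease reported to inhibit TGF-beta family signals, fell from 2822 ± 233 to 1007 ± 264 CPM. Lefty1, an inhibitor of Nodal, had 81 counts over the MK1 libraries and 0 in MK2, and was at least 25.2-fold lower against a floor of 3 counts over both libraries.

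Of 7 other receptors and co-receptors tested, 2 rose and 3 fell, with a median of -0.34, where 25.9% of all tested genes rose and 28.6% fell. The activin type I receptor Acvr1b fell from 39.1 ± 0.157 to 14.4 ± 0.606 CPM (adjusted p = 1.86e-04 in edgeR), while the activin type II receptor Acvr2a rose by 0.70. Tgfbr3, the co-receptor betaglycan, fell from 13.8 ± 5.43 to 1.25 ± 0.0792 CPM, and Acvrl1, a type I receptor best known from endothelium, from 31.2 ± 5.85 to 0.948 ± 1.00 CPM. The 5 endothelial markers summed to 14.97 to 17.8 CPM in MK1, where Acvrl1 was high, and to 25.4 to 27.5 CPM in MK2. Kdr gave most of that sum in both lines, Cdh5 had no count in either and Tek none in MK1, and the part of such cells was not tested. Cd109, a TGF-beta co-receptor of keratinocytes, rose from 5.73 ± 0.428 to 112 ± 10.1 CPM, by 4.29 (SE 0.14, adjusted p = 6.70e-06 in edgeR).

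Smads and their partners differed little in size. Of 8 tested, 4 rose and 1 fell, with a median of 0.17 and no difference beyond 0.79 in either direction, where 54.6% of all tested genes were called. Fewer were called higher without MK1 replicate 1, MK1 replicate 2 or MK2 replicate 1, and fewer lower without MK1 replicate 1. The same was so over all tested genes, though by little without MK2 replicate 1. Trim33, a Smad4 ubiquitin ligase, was among the 4 (difference 0.30, adjusted p = 0.0468 in edgeR). Its call ended without MK1 replicate 1, MK1 replicate 2 or MK2 replicate 1, where the difference was 0.28, 0.32 and 0.24. It also ended with library size alone, upper-quartile scaling, other count filters and the replicate block in edgeR, and in DESeq2 (adjusted p of 0.0564 to 0.0877). Smad2 rose by 0.31 and Smad4, the shared partner, stood at 139 ± 8.05 and 143 ± 6.72 CPM and did not pass (adjusted p = 0.743 in edgeR), the sign of its difference of 0.04 turning with upper-quartile scaling (-0.01) and without MK1 replicate 1 (-0.02). The call of Smad2 ended without each library in turn (adjusted p of 0.0502 to 0.242), under upper-quartile scaling (0.0763) and under the replicate block (0.0669). Zfyve9, which brings Smads to the receptor, rose by 0.79. Crebbp rose by 0.72 and Ep300 fell by 0.54, both being acetyltransferase coactivators. The Crebbp call had an adjusted p of 0.0490 and ended under 6 of the alternatives, among them those without MK1 replicate 1, MK1 replicate 2 or MK2 replicate 1 (adjusted p = 0.178, 0.198 and 0.179). That of Ep300 ended without MK1 replicate 1 (adjusted p = 0.0665).

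Most of the Smad inhibitors that were called were higher in MK2. Of 13 tested besides Smad7, 7 rose and 1 fell, with a median of 0.34, where 25.9% of all tested genes rose and 28.6% fell. Smad6, among the 7, passed the count filter through MK2 alone and could only be found higher. Fewer were called higher without MK1 replicate 1 or MK1 replicate 2, as was so over all tested genes. More were called lower without MK2 replicate 1, where fewer of all tested genes were. The ubiquitin ligases Smurf1 and Smurf2 were among the 7. Both calls ended without MK1 replicate 1 or MK1 replicate 2. In edgeR they also ended under upper-quartile scaling (adjusted p = 0.0544 and 0.0620) and the replicate block (adjusted p = 0.0653 and 0.0688). That of Smurf1 ended without MK2 replicate 2 too (difference 0.26), and that of Smurf2 without MK2 replicate 1 (difference 0.29). Pmepa1, a membrane protein that sequesters Smads and is induced by TGF-beta, rose from 51.5 ± 7.43 to 258 ± 110 CPM, by 2.32 (adjusted p = 8.55e-04 in edgeR). Tgif2, a Smad corepressor, rose by 1.11 and its relative Tgif1 by 0.70. The Tgif1 call ended without MK1 replicate 1, MK1 replicate 2 or MK2 replicate 2 (adjusted p = 0.110, 0.151 and 0.0539). Smad6, a BMP-directed inhibitory Smad beside Smad3 on chromosome 9, had 1 count over the MK1 libraries and 49 over those of MK2, a ratio of 52.4 (95% counting interval 8.98 to 2112). It was named after its values were seen. Strap, a receptor-associated inhibitor and the most abundant of the list, rose by 0.34. It did not pass without MK1 replicate 1 or 2 (adjusted p = 0.232 and 0.0793), under upper-quartile scaling (0.0597) or under the replicate block (0.0596). Ppp1r15a, which directs a phosphatase to the type I receptor, fell (difference -1.33).

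Genes known as TGF-beta targets did not move as 1 group. Of 17 tested besides Tgfbi and Smad7, 7 rose, 5 fell and 5 did not pass, with a median of 0.27, where 25.9% of all tested genes rose and 28.6% fell. Fewer were called lower without MK1 replicate 2 and more without MK2 replicate 2. Over all tested genes the number lower moved the same way, though by little without MK2 replicate 2. With Pmepa1 and Thbs1, described above, the matrix gene Fn1 rose, from 45.6 ± 12.6 to 182 ± 13.4 CPM (difference 1.99, adjusted p = 3.29e-04 in edgeR), and the basement membrane collagens Col4a1 and Col4a2 rose by 1.18 and 1.26. Cdkn1a, the CDK inhibitor p21, fell from 449 ± 10.3 to 178 ± 36.8 CPM (difference -1.33). Cdkn2b, the CDK inhibitor p15, did not pass, at 14.9 and 12.5 CPM in MK1 and 8.66 and 24.2 CPM in MK2. Some further genes fall outside the rule for naming genes and were chosen after their values were seen. They are Itgav, Inha, Nodal, Mstn, Htra3, Bgn, Cer1, Trim33, Smurf1, Smurf2, Acvr2a, Itgb6, Ltbp4, Lrrc33, Col4a1, Col4a2 and Cdkn2b.

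**Figure D4:**
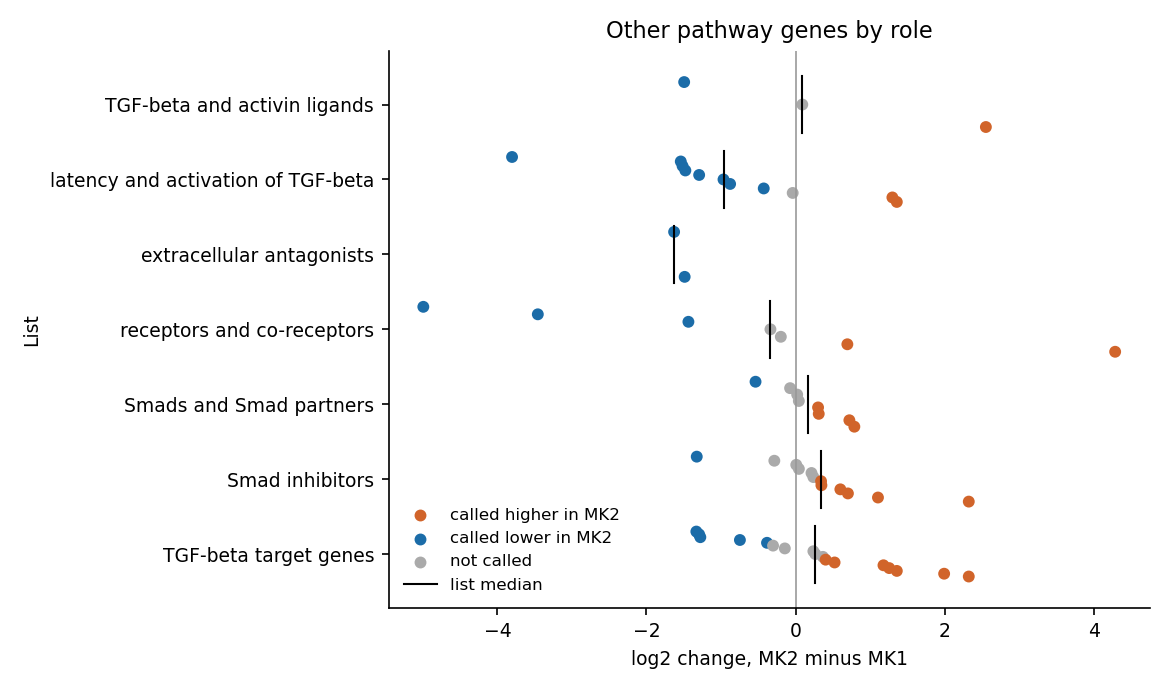
log2 change, MK2 minus MK1, of the tested pathway genes outside the 10, 1 point per gene in each of 7 lists, with genes called higher in orange, lower in blue and not called in grey, and a black line at the list median. Lefty1 and Smad6 are left out because they had 0 and 1 counts in a line. The latency list lies mostly to the left of 0 (median -0.97), and the Smad inhibitors mostly to the right (median 0.34).

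**Figure D5:**
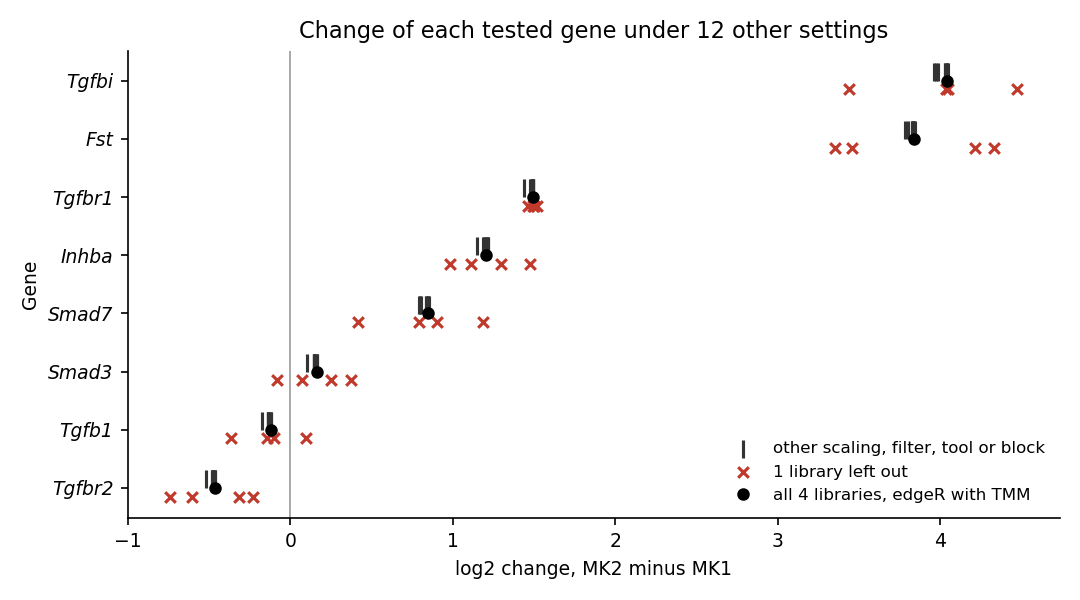
log2 change, MK2 minus MK1, of each tested gene with all 4 libraries (black circles), with 1 library left out (crosses) and with another scaling, filter, tool or block (ticks). Tgfbi, Fst, Tgfbr1, Inhba and Smad7 stay to the right of 0 and Tgfbr2 to the left, while Tgfb1 and Smad3 lie on both sides when 1 library is left out.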

How the data were processed

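Libraries were made from RNA of 2 cultures a line with a TruSeq kit, per the labels' protocols. The authors deposited raw read counts per gene. Per the file headers, TopHat alignments were counted over exons with featureCounts 1.4.6-p4 and the UCSC mm10 annotation, with no option for strand or multiple alignments. The submitters' processing notes name DESeq2 1.10.1 and featureCounts 1.5.0, and also TopHat2 2.0.13 with Bowtie2 2.2.6. No exon base of the 10 genes was shared with another gene of the table.

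The test was that of edgeR 4.0.16 under R 4.3.3 (filterByExpr with a minimum count of 10, TMM, quasi-likelihood F test, two-sided, Benjamini-Hochberg over 12479 tested genes, threshold 0.05). SE is the log2 difference divided by the square root of F. Replicate gaps were taken after adding 0.1 CPM. Counting intervals are exact binomial at 95%. Of all rows, 6644 had no count and 27 had names turned into dates. Replicates differed by more than counting noise (median chi-square per gene 2.87 and 4.28, against 0.455). Nothing in the labels pairs the cultures of the lines.

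The 10 genes and the lists were chosen with earlier results of these data known. Of the listed symbols, 2 were matched through a synonym. Some listed genes enter the counts and sums and are not reported here by name. Of each list, up to 4 called genes with at least 1 CPM and non-overlapping libraries, by size of difference, and the most abundant gene were named. Promoter sequences came from RefSeq on GRCm38.p6, where 7 of the 10 genes were matched and 3 stretches are printed. On simulated data for MK2 against MK1 (12296 genes), 90% of genes changed 2-fold, 100% of those changed 4-fold and 0.0827% of the unchanged were called. There, 100 genes were changed by each size, all above a level that Inhba did not reach, and each gene had the spread typical of its level. These rates need not hold for Inhba, for genes with wide replicate gaps such as Fst and Tgfbi, or where many genes differ. Alternatives were other scalings, filters, DESeq2 1.42.0, each library left out and the replicate number as a block. The counts per list without each library were added after seeing the data.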

Additional observations from a re-analysis of the deposited data

How the results depend on the processing

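With 2 cultures a line, p-values measure the spread between cultures of these lines only, and genes below about 10 counts, Tgfb2 and Tgfb3 here, could not be compared. Among the 10 genes, 3 were called beyond 2-fold under every scaling, filter, block and left-out library tried, and 4 with a log2 threshold of 0.58 in place of 1. Leaving out a library gave 3 to 5 genes called higher and 0 to 2 called lower, and over all genes 1527 to 3222 higher and 2189 to 3625 lower, the low ends without MK1 replicate 1 over all genes and without MK1 replicate 2 over the 10. Of the pathway genes, 11 to 19 were then higher and 18 to 24 lower. The count of the 10 called lower was 1 in DESeq2, 1 with no low-count filter and 1 with the crossed block, in each case Tgfbr2. With a library left out, Tgfb1 ranged from -0.37 to 0.098, turning without MK2 replicate 1, and Smad3 from -0.080 to 0.37, turning without MK2 replicate 2. Smad4 turned to -0.013 with upper-quartile scaling and ranged from -0.017, without MK1 replicate 1, to 0.10 with a library left out. The cause was not tested. With the replicate number as a block, 5 of the 10 genes were called higher and 0 lower, 2733 and 3175 of all genes, and 16 and 20 pathway genes. The correlation of replicate gaps between lines was -0.15, so a crossed pairing was added after the data had been seen, with 5 and 1 of the 10 genes called, 3568 and 3886 of all genes, and 21 and 22 pathway genes.

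In CPM in place of TPM the Tgfb1 share was 99.6% in MK1 and 99.5% in MK2, the Tgfb2 share 0.281% and 0.492%, against 0.125% and 0.219% in TPM, and Fst over Inhba in MK2 was 13.5. With 1 library left out, Fst over Inhba was 0.881 to 2.27 in MK1 and 6.82 to 10.9 in MK2. Chromosome medians also moved with the settings. With upper-quartile scaling, which shifted all genes by -0.06, they were -0.17 for chromosome 7, -0.033 for 1, -0.30 for 12, 0.31 for 4, -0.29 for 9 and -0.47 for 13. With no low-count filter they were -0.0042 for chromosome 1, -0.21 for 12, 0.29 for 4, -0.28 for 9 and -0.48 for 13. Chromosome 1, at 0.02 with all libraries, thus turned under both. With a minimum count of 50, chromosomes 1 and 4 stood at 0.053 and 0.42, and with library size alone chromosome 4 at 0.36. Leaving out a library gave 0.36 to 0.41 for chromosome 4, -0.27 to -0.21 for 12, -0.24 to -0.21 for 9, 0.12 to 0.23 for 18 and -0.46 to -0.40 for 13.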
